A study of Canis lupus familiaris with 10 samples.

Results

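The antioxidant and glutathione enzymes are a group of 42 genes that detoxify superoxide and peroxides, make and recycle glutathione, conjugate reactive compounds to it, or regulate these enzymes. Members were found by symbol: a probe set was counted as a member when its annotation named a single gene and that gene was in the list. Of the 42 genes, 37 had such a probe set (82 probe sets), and 33 had at least 1 probe set that passed the expression filter used by the study, above 7 on the log2 scale in 2 or more retinas. These 33 genes were part of 7900 tested genes, and their 61 tested probe sets part of 18416. The annotation gave no probe set of their own to GPX4, GSTM3, GSTP1, MGST3 and SRXN1, and SOD3, GPX7, GCLC and SLC7A11 had probe sets that did not pass the filter.

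Gene expression was measured on Affymetrix canine arrays in the neural retina of 10 dogs, 1 array per dog and 1 eye per dog. The glaucoma group held 5 dogs with advanced primary glaucoma and a closed drainage angle: replicate 1, a Shiba Inu aged 5 years; replicate 2, a Shiba Inu aged 14 years; replicates 3 and 4, Basset Hounds aged 5 and 7 years; and replicate 5, a Dalmatian aged 9 years. All of them had received latanoprost and brinzolamide, drugs that lower intraocular pressure, and their eyes were removed to relieve pain. The healthy group held 5 untreated Beagles aged 4 years, euthanized for unrelated reasons. Breed, age, drug treatment and the way the tissue was obtained therefore cannot be told apart from glaucoma. Ages are those of the sample labels, and the study's own sample list gives other ages for some of the glaucoma dogs and the breeds in another order, so breed and age by replicate number are as labelled and uncertain.

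Superoxide dismutases turn superoxide into hydrogen peroxide, which catalase, glutathione peroxidases and peroxiredoxins then reduce to water. Most glutathione peroxidases draw their electrons from glutathione, and most peroxiredoxins draw theirs from thioredoxin. The reductases that recycle both carriers use NADPH. The transcription factor NRF2, which KEAP1 holds in check, raises many of these genes under oxidative or electrophilic stress. In the retina, photoreceptors and neurons with a high rate of respiration are exposed to oxidants, and Müller glia are a main store of glutathione.

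The tissue was checked against markers of retinal cell types. All 12 rod markers with a probe set passed the filter, as did 13 of 14 markers of Müller glia and astrocytes, and 10 of 12 ganglion cell markers (POU4F1 and POU4F2 did not). One sample stood apart. In glaucoma replicate 1 the median rod marker stood at -3.47 log2 units relative to the healthy mean, against -0.62 to 0.14 in the other 4 glaucoma retinas, and the median marker of the retinal pigment epithelium (RPE), the pigmented layer behind the photoreceptors, was 2.83 above it. Healthy replicate 4 also stood high for RPE markers, at 2.01 above the healthy mean. The other retinas carried RPE signal too. With these 2 set aside, summed RPE markers were 5012 to 23850 in glaucoma and 2594 to 4609 in healthy retina, ranges that did not overlap. Results are therefore given with and without glaucoma replicate 1 and healthy replicate 4 where they bear on a member.

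In the glaucomatous retina 7 of the 33 members were higher and 1 was lower. The 7 were the peroxidases GPX3, GPX8 and PRDX4, the superoxide dismutase SOD2, the glutathione synthetase GSS and the membrane transferases MGST1 and MGST2. The single lower gene was OXR1. The other 25 members did not pass the test, which was limma's moderated test with Benjamini-Hochberg adjustment over all tested probe sets at an adjusted p of 0.05, with each gene read from its brightest tested probe set. The higher genes made up 21.2% of the members, beside 8.04% of all tested genes, and the lower gene 3.03%, beside 8.65%. MGST2 passed the expression filter through glaucoma retinas alone. Under a filter of 7 in at least 5 retinas, which drops it, 6 of 32 members were higher (18.8%, beside 7.45% of all genes) and 1 was lower (3.12%, beside 8.73%). The median difference was 0.28 log2 units over the members and -0.01 over all tested genes. Every glaucoma retina lay above every healthy retina for 4 members (12.1%), beside 7.29% of all genes, and below for 1 (3.03%), beside 7.84%. Counted by probe set, 14 of 61 were higher (23.0%, beside 7.58% of all) and 4 were lower (6.56%, beside 9.4%). Some of these probe sets read the same gene, such as those of MGST1 and of OXR1, and are not independent. Under the filter of 7 in at least 5 retinas, which drops the MGST2 probe set and 1 of OXR1, 13 were higher and 3 lower. These counts were not set beside all probe sets under that filter. In whole retina, a gene made by fewer or more cells and a gene made at a changed rate per cell cannot be told apart.

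**Figure D1:**
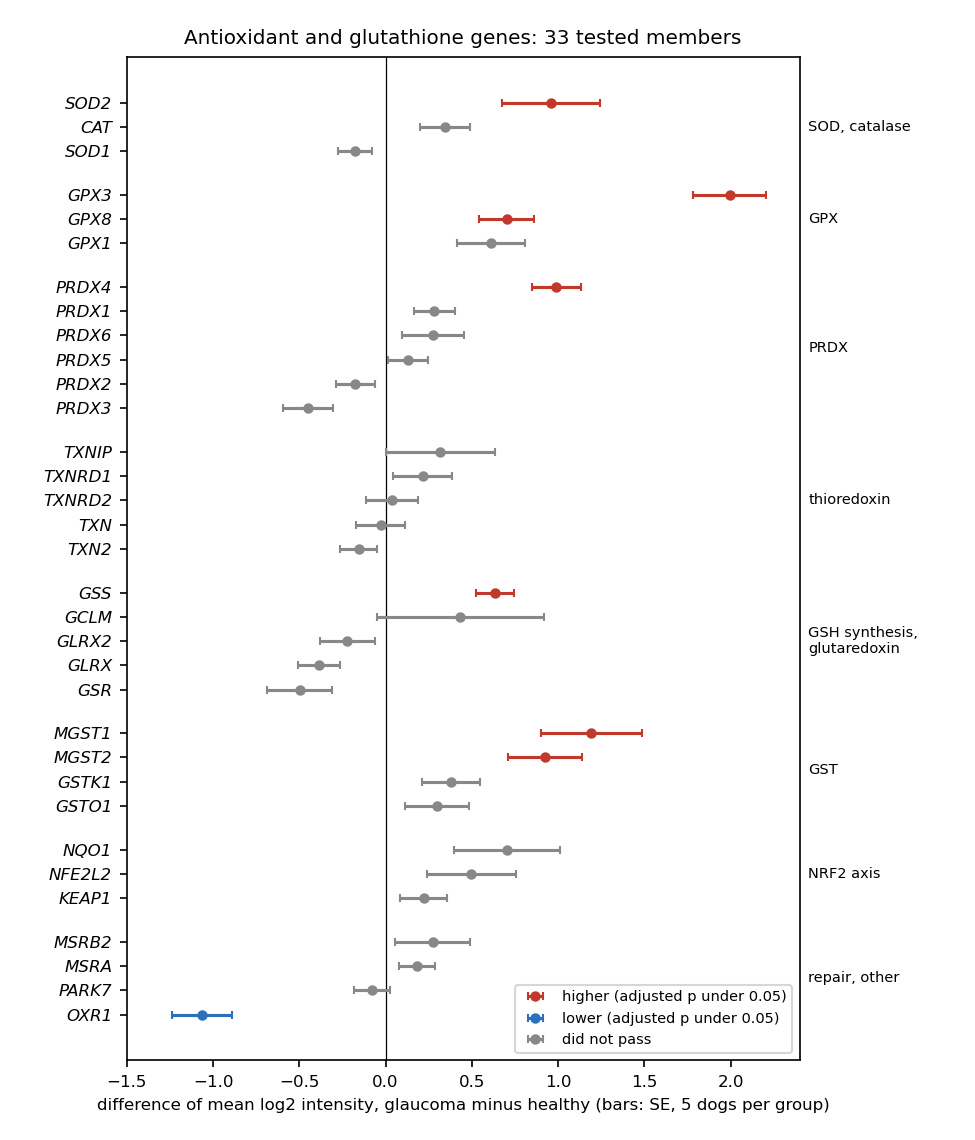
Difference between the mean log2 intensity of 5 glaucoma and 5 healthy retinas for each of the 33 tested members, grouped by role, with the standard error as a bar. GPX3 lies farthest to the right at 2.0 and OXR1 farthest to the left at -1.06, and the 25 grey members did not pass the test.

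Among the enzymes that act on superoxide, SOD2, the mitochondrial manganese enzyme, was higher in glaucoma. The glaucoma retinas read 10.35, 9.48, 10.65, 10.32 and 11.39 in replicates 1 to 5 and the healthy retinas 9.18, 9.48, 9.43, 9.69 and 9.62 (log2 intensity). Replicate 5 was highest and replicate 2 lay within the healthy range, so the groups overlapped. The difference was 0.96 with a standard error (SE) of 0.28 (adjusted p = 0.041). SOD2 was the least stable call among the members: without glaucoma replicate 5 the difference was 0.72 (adjusted p = 0.064), and leaving out glaucoma replicate 3 or 4, or any 1 of the 5 healthy dogs, also took the adjusted p past the threshold, to between 0.061 and 0.085. A dimmer second probe set gave a difference of 0.35 (adjusted p = 0.32). Catalase (CAT), which breaks down hydrogen peroxide in peroxisomes, differed by 0.35 (SE 0.15, adjusted p = 0.12), and SOD1, the copper and zinc enzyme of the cytosol, by -0.18 (SE 0.10, adjusted p = 0.25). Neither passed the test. Red blood cells are rich in catalase and PRDX2. Of 10 listed erythroid markers 3 had a probe set (ALAS2, CA1, SLC4A1), and these did not pass the expression filter. The listed haemoglobin genes had no probe set by symbol, and the part of blood in the levels of CAT and PRDX2 was not tested.

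The glutathione peroxidases held the member with the largest difference. GPX3, the secreted plasma-type peroxidase (Entrez Gene 489179), was about 4-fold higher in glaucoma. Its level was 13.63, 12.96, 12.77, 12.96 and 13.43 in glaucoma replicates 1 to 5 and 11.20, 10.71, 11.03, 11.73 and 11.10 in the healthy dogs. The lowest glaucoma retina was more than 1 log2 unit above the highest healthy retina. The difference was 2.0 (SE 0.21, adjusted p = 0.00018), and a second probe set gave 2.42 (SE 0.23, adjusted p = 0.00011), again without overlap. Without glaucoma replicate 1 the difference in the brightest probe set was 1.88, and GPX3 passed the test under each of the 27 alternative analyses. In both probe sets the highest retina of each group was the one with the most RPE signal, glaucoma replicate 1 and healthy replicate 4. Without these 2 retinas the brightest probe set differed by 2.02 (adjusted p = 0.00022). In that set RPE markers still stood higher in glaucoma, and their part in GPX3 was not tested.

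GPX8, a peroxidase of the endoplasmic reticulum, was also higher. Its glaucoma levels were 11.08, 10.42, 10.50, 10.48 and 11.10, and its healthy levels were 10.23, 10.02, 10.02, 9.93 and 9.88. The groups did not overlap, with replicates 1 and 5 above the other glaucoma dogs. The difference was 0.70 (SE 0.16, adjusted p = 0.012), and 0.61 without glaucoma replicate 1 (adjusted p = 0.018), while a second, dimmer probe set differed by 0.49 and did not pass (adjusted p = 0.17).

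GPX1, the abundant cytosolic peroxidase, split by probe set. Its brightest probe set read 12.68, 11.85, 11.88, 12.16 and 12.62 in glaucoma and 11.99, 11.68, 11.56, 11.64 and 11.25 in healthy retina. Only healthy replicate 1 reached into the glaucoma range, and the difference of 0.61 (SE 0.20) missed the threshold (adjusted p = 0.055). Both other probe sets of GPX1 were higher by 0.90 (SE 0.21), with adjusted p of 0.015 and 0.013, and in both every glaucoma retina lay above every healthy one. The brightest probe set passed the test without healthy replicate 1 (0.71, adjusted p = 0.044), without glaucoma replicate 2 (0.71, adjusted p = 0.034) or without glaucoma replicate 3 (0.70, adjusted p = 0.035).

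**Figure D2:**
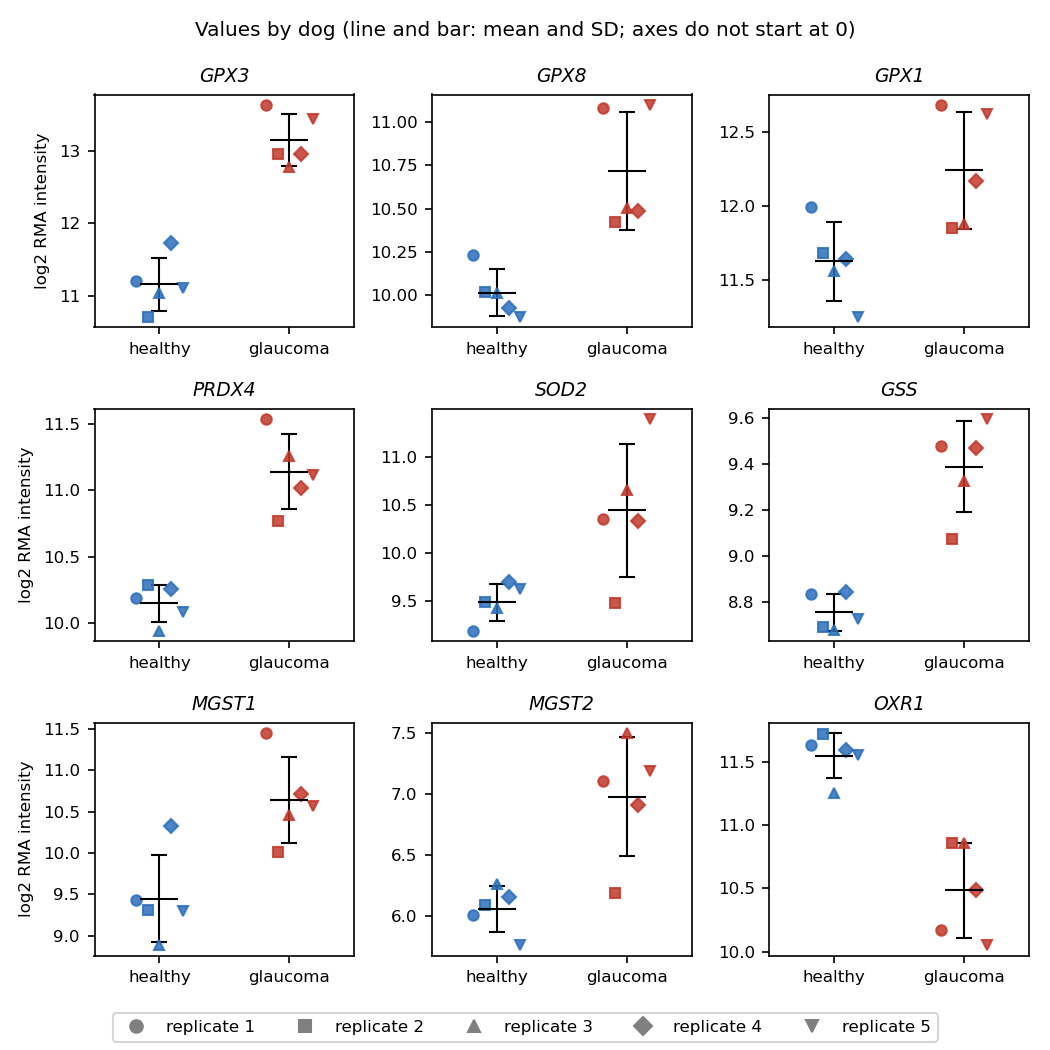
Log2 RMA intensity of the 8 members past the test and of GPX1 in each retina, with the group mean and SD; marker shapes give the replicate number, which does not pair dogs between groups. GPX3, GPX8, PRDX4, GSS and OXR1 do not overlap between groups, while glaucoma replicate 2 (square) falls inside the healthy range for SOD2, MGST1 and MGST2.

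Of the 6 peroxiredoxins, enzymes that reduce peroxides through a reactive cysteine, 1 was higher (16.7%, beside 8.04% of all genes) and none was lower (beside 8.65%). PRDX4, the member that works in the secretory pathway (Entrez Gene 491776), measured 11.53, 10.77, 11.26, 11.01 and 11.12 in glaucoma and 10.19, 10.28, 9.94, 10.25 and 10.08 in healthy retina. All glaucoma retinas lay above the healthy ones, and the difference was 0.99 (SE 0.14, adjusted p = 0.0010), or 0.89 without glaucoma replicate 1 (adjusted p = 0.00085). PRDX3, the mitochondrial peroxiredoxin, had the opposite sign at -0.45 (SE 0.15, adjusted p = 0.057). Its glaucoma values were 10.86, 10.27, 10.42, 10.41 and 10.14 and its healthy values 10.76, 11.08, 10.62, 11 and 10.89. Glaucoma replicate 1 was the only glaucoma retina inside the healthy range, and without it the difference was -0.56 and passed the test (adjusted p = 0.0096).

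The cytosolic PRDX1 differed by 0.28 (adjusted p = 0.12), and by 0.36 without glaucoma replicate 3 (adjusted p = 0.036). PRDX6, which uses glutathione in place of thioredoxin, differed by 0.28 (adjusted p = 0.32), PRDX5 by 0.13 (adjusted p = 0.46) and PRDX2, a cytosolic form, by -0.18 (adjusted p = 0.32). For PRDX2, PRDX5 and PRDX6 a second probe set had the same sign and did not pass.

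None of the 5 members of the thioredoxin system passed the limma test, beside 8.04% of all genes higher and 8.65% lower. At an unadjusted p under 0.05 there were 0, beside 1198 higher and 1340 lower of 7900 genes. For 0 were the groups without overlap, beside 7.29% of all genes above and 7.84% below. With 5 genes these counts cannot be read as particular to the thioredoxin system. The cytosolic thioredoxin TXN differed by -0.03, with a 95% confidence interval from -0.35 to 0.29. Its mitochondrial counterpart TXN2 differed by -0.16 (interval -0.39 to 0.08). The reductases that restore them, TXNRD1 in the cytosol and TXNRD2 in mitochondria, differed by 0.21 (interval -0.17 to 0.60) and 0.04 (interval -0.29 to 0.37). These intervals still hold differences of up to 0.60 log2 units.

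TXNIP, an inhibitor of thioredoxin that responds to glucose, was the only member whose tested probe sets differed in sign. The brighter one read 10.35, 10.15, 10.15, 10.55 and 11.35 in glaucoma and 9.51, 10.32, 10.17, 9.79 and 11.17 in healthy dogs, a difference of 0.32 (SE 0.32). In the other the glaucoma values were 8.37, 7.45, 7.85, 7.62 and 8.44 and the healthy values 7.30, 8.33, 8.18, 7.45 and 9.24, a difference of -0.15 (SE 0.35). Both spread widely within each group, and replicate 5 was the highest retina of its group in both probe sets and both groups.

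In glutathione synthesis, 1 step was higher. GSS, glutathione synthetase (Entrez Gene 442962), joins glycine to the dipeptide that glutamate-cysteine ligase makes. Its glaucoma levels were 9.48, 9.07, 9.33, 9.47 and 9.59 and its healthy levels 8.83, 8.69, 8.68, 8.84 and 8.72. The groups did not overlap, and the 5 healthy dogs fell within a range narrower than the gap between the groups. The difference was 0.64 (SE 0.11, adjusted p = 0.0034) in this probe set and 0.61 (SE 0.11, adjusted p = 0.0033) in a second one.

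For the preceding step no tested member passed. GCLM, the modifier subunit of glutamate-cysteine ligase, read 9.29, 6.55, 8.19, 8.15 and 8.95 in glaucoma and 8.89, 7.11, 7.88, 7.36 and 7.71 in healthy dogs. It was the most variable member (SD 1.06 in glaucoma and 0.68 in healthy retina), and its difference of 0.43 had an interval from -0.64 to 1.5. The catalytic subunit GCLC passed the level of 7 in glaucoma replicate 1 alone, where its probe sets read 7.34 and 7.06 against at most 6.25 and 6.04 in the other 9 retinas. SLC7A11, the transporter that brings in cystine for this step, likewise read 7.67 there and at most 6.77 elsewhere.

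Enzymes that recycle glutathione or use it to reduce disulfides had differences below 0. Glutathione reductase (GSR) differed by -0.50 (SE 0.19, adjusted p = 0.092). Its glaucoma values were 6.98, 6.77, 7.58, 6.63 and 6.90 against healthy values of 7.02, 7.55, 7.61, 7.50 and 7.67. Glaucoma replicate 3 stood above the other glaucoma dogs and healthy replicate 1 below the other healthy dogs. Without the former the difference was -0.65 (adjusted p = 0.014) and without the latter -0.61 (adjusted p = 0.048).

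GLRX, the cytosolic glutaredoxin, had 3 tested probe sets below 0. The brightest read 10.16, 10.16, 9.90, 10.15 and 10.55 in glaucoma and 10.65, 10.67, 10.52, 10.50 and 10.50 in healthy retina, a difference of -0.38 (SE 0.12, adjusted p = 0.052). Replicate 5 was the glaucoma retina inside the healthy range, and without it the difference was -0.47 (adjusted p = 0.015). The second probe set read 8.41, 8.23, 8.13, 8.27 and 8.65 against 8.75, 9.28, 8.74, 8.78 and 9.05, did not overlap and was lower (-0.58, SE 0.14, adjusted p = 0.017). The third differed by -0.32 (adjusted p = 0.12). The mitochondrial glutaredoxin GLRX2 differed by -0.22 (adjusted p = 0.36).

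The glutathione transferases attach glutathione to reactive compounds, and both tested membrane-bound members were higher. MGST1, found in the endoplasmic reticulum and the outer mitochondrial membrane (Entrez Gene 477683), read 11.45, 10.02, 10.46, 10.72 and 10.57 in glaucoma and 9.43, 9.31, 8.89, 10.32 and 9.30 in healthy retina. Each group had its highest value in the retina with the most RPE signal, glaucoma replicate 1 and healthy replicate 4, and the latter lay above glaucoma replicate 2. The difference was 1.19 (SE 0.29, adjusted p = 0.018) in all 10 retinas and 1.21 (adjusted p = 0.0023) without these 2, a set in which RPE markers still stood higher in glaucoma. All 3 tested probe sets of MGST1 were higher, by 0.81, 1.19 and 1.33. By their brightest probe sets, GPX3, NFE2L2, NQO1, KEAP1, CAT, TXNRD1 and MSRB2 were likewise highest in glaucoma replicate 1 and healthy replicate 4 within each group. The part of RPE signal in these levels was not tested.

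MGST2, a related enzyme that can also make leukotriene C4 (Entrez Gene 476078), was near the filter, with 7.11, 6.19, 7.50, 6.91 and 7.19 in glaucoma and 6.01, 6.09, 6.26, 6.16 and 5.76 in healthy retina. It exceeded 7 in 3 retinas, all of them glaucoma, so it entered the test only through the group in which it was high, and its call adds no support to the count. Only glaucoma replicate 2 fell within the healthy range. The difference was 0.92 (SE 0.21, adjusted p = 0.014). A second probe set of MGST2, which did not pass the filter and was not tested, read 5.73 to 7.29 in glaucoma and 4.98 to 5.49 in healthy dogs.

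Of the soluble transferases, GSTK1, a mitochondrial and peroxisomal form, split by probe set. The brighter read 9.82, 9.15, 9.72, 9.63 and 9.71 in glaucoma and 9.24, 8.81, 9.55, 9.42 and 9.10 in healthy retina, a difference of 0.38 (SE 0.17, adjusted p = 0.14). Replicate 2 lay below the other glaucoma dogs, and without it the difference was 0.50 (adjusted p = 0.047). The second read 8.96, 8.41, 8.97, 8.86 and 8.83 against 7.83, 8.03, 8.48, 8.40 and 8.21 and was higher by 0.62 (SE 0.15, adjusted p = 0.019). GSTO1, an omega-class transferase, differed by 0.30 (adjusted p = 0.29).

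**Figure D3:**
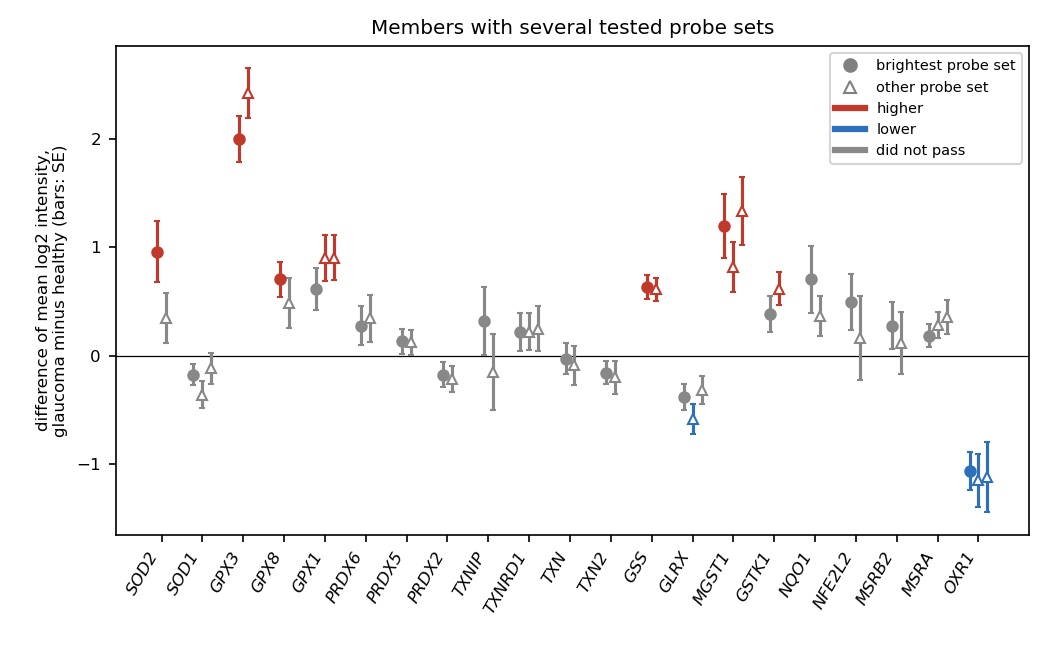
Difference between glaucoma and healthy retina, with its SE, for every tested probe set of the 21 members that had more than 1; filled circles are the brightest probe set, which stands for the gene, and open triangles the others. In 20 of the 21 members all probe sets have the same sign, and TXNIP is the exception; GPX1, GPX8, SOD2, GSTK1 and GLRX have some probe sets on each side of the test's threshold.

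The NRF2 axis had 3 tested members, none of which passed the limma test in the reported analysis, which had no covariate. Of all tested genes 8.04% were higher and 8.65% lower, so a count of 0 among 3 is no result about the axis. Of the 3, 1 member, NQO1, had an unadjusted p under 0.05, and all 3 overlapped between groups. NFE2L2, which encodes NRF2, read 10.68, 9.19, 9.85, 9.30 and 9.85 in glaucoma and 8.87, 9.41, 9.24, 9.59 and 9.28 in healthy retina. Its difference was 0.50 (interval -0.07 to 1.06, adjusted p = 0.21). NQO1, a quinone reductase and a standard NRF2 target, read 9.57, 7.82, 8.74, 8.07 and 9.00 against 7.79, 7.88, 7.53, 8.42 and 8.06, a difference of 0.70 (interval 0.03 to 1.38, adjusted p = 0.14). For both genes glaucoma replicate 1 was the highest of the 10 retinas, and without it the differences were 0.27 and 0.47. Healthy replicate 4 was the highest healthy retina for both. Without these 2 retinas the differences were 0.35 and 0.59 (adjusted p = 0.26 and 0.15). With age as a covariate NQO1 was higher and passed the limma test (1.21, adjusted p = 0.048). NFE2L2 did not pass in that fit (0.915, adjusted p = 0.068), and neither did KEAP1. All healthy dogs were aged 4 years and the ages in glaucoma are uncertain, so that fit cannot separate age from glaucoma. KEAP1, the repressor of NRF2, differed by 0.22 (interval -0.08 to 0.52).

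OXR1 was the 1 member that was lower. Its product protects cells, neurons among them, from oxidative damage by a mechanism that is not fully known. The brightest probe set (Entrez Gene 481998) read 10.17, 10.85, 10.86, 10.48 and 10.05 in glaucoma and 11.63, 11.71, 11.25, 11.59 and 11.55 in healthy retina. The groups did not overlap, and replicates 1 and 5 were lowest. The difference was -1.06 (SE 0.17, adjusted p = 0.0023), or -0.99 without glaucoma replicate 1. Both other tested probe sets of OXR1 were lower as well, by -1.15 (adjusted p = 0.0094) and -1.12 (adjusted p = 0.037), the latter a probe set that passed the filter through healthy retinas alone, and OXR1 passed the test under each of the 27 alternatives.

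The remaining members were methionine sulfoxide reductases, which repair oxidized methionine, and PARK7. MSRA differed by 0.18 (adjusted p = 0.26), and its other 2 tested probe sets by 0.28 and 0.36, neither of which passed. MSRB2, a mitochondrial form, differed by 0.27 (adjusted p = 0.41), with 10.12 in glaucoma replicate 1 and 8.85 to 9.18 in the other glaucoma dogs. PARK7, a redox-sensitive protein linked to inherited parkinsonism, differed by -0.08 (interval -0.31 to 0.16).

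Members varied more among the glaucoma retinas than among the healthy ones, with a median SD of 0.31 against 0.18. All tested genes had medians of 0.26 and 0.18. Glaucoma replicate 1 was the highest of the 10 retinas in 15 of the 33 members, 12 of them members that did not pass the test. Glaucoma replicate 2 was the lowest glaucoma retina in 19. These counts were not set beside all tested genes, so they cannot be read as particular to the members. Relative to the healthy mean, the median over the 33 members was 0.60 in glaucoma replicate 1, -0.04 in replicate 2, 0.11 in replicates 3 and 4, and 0.32 in replicate 5. With glaucoma replicate 1 left out, the median difference of the members was 0.17 in place of 0.28, and 7 members were higher (21.2%, beside 7.89% of all genes) and 2 lower (6.06%, beside 9.53%), the second being PRDX3. The 12 members that did not pass and for which that retina stood highest began with NFE2L2, NQO1, GCLM, TXNRD1, PRDX6 and GSTO1. The others were MSRB2, CAT, GPX1, GSTK1, KEAP1 and TXNRD2. The differences of these 12 without it ran from -0.05 (TXNRD2) to 0.50 (GPX1), and none passed the test with or without it.

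**Figure D4:**
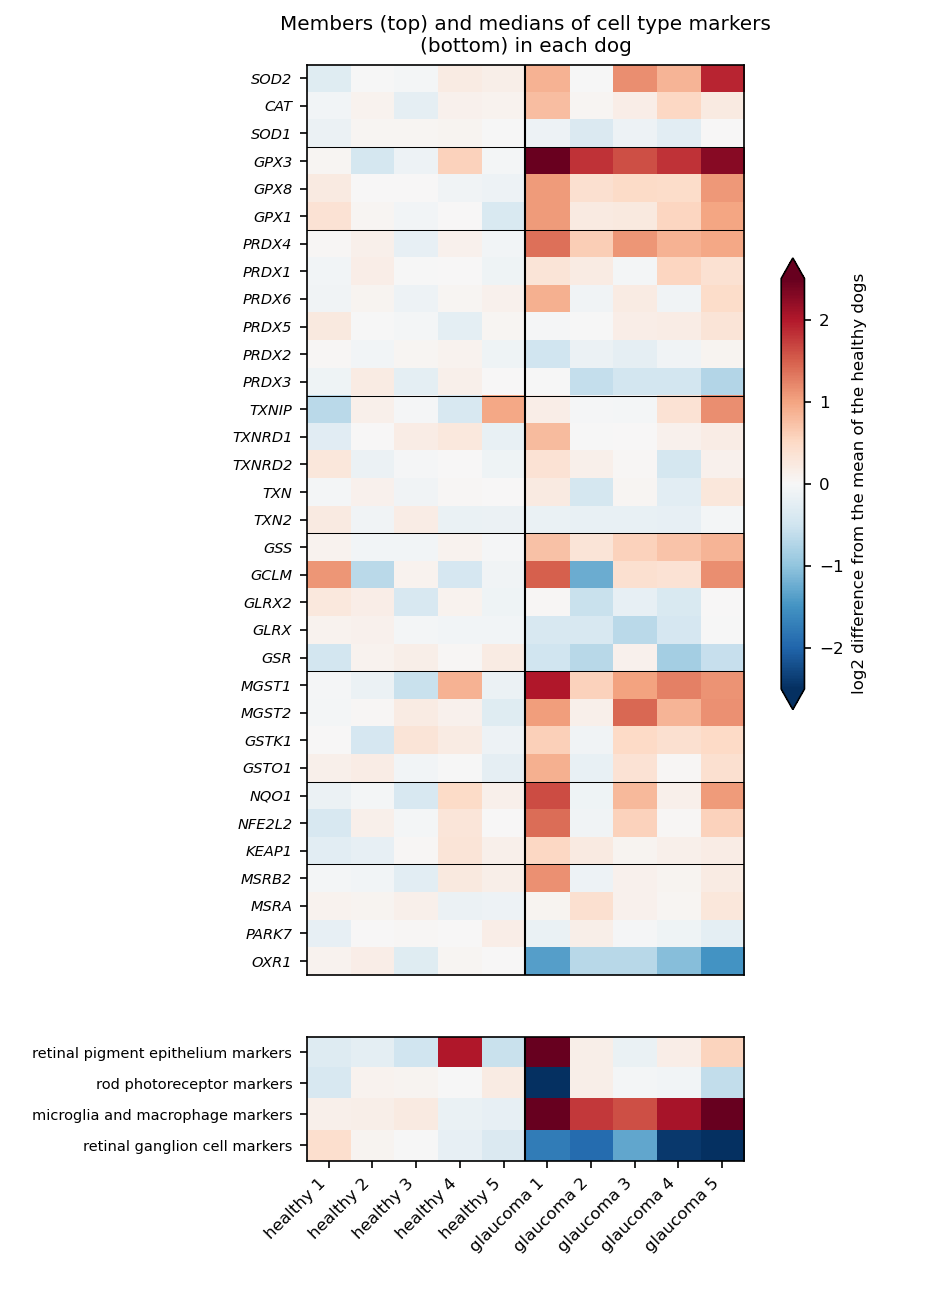
Each retina's log2 difference from the healthy mean for the 33 members (top, ordered by role) and for the median marker of 4 cell types (bottom); colours are capped at 2.5 in either direction. Glaucoma replicate 1 is red in most rows and is also the retina with high RPE (2.83), low rod (-3.47) and high microglia (2.73) markers, and the row of GPX3 is red in all 5 glaucoma dogs.

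Markers of several cell types moved with the groups. All 12 tested microglia and macrophage markers were higher, with summed intensities of 10940 to 24710 in glaucoma and 2481 to 3721 in healthy retina. Markers of Müller glia and astrocytes were higher for 5 of 13 (summed 69000 to 90120 against 60850 to 70060). Ganglion cell markers were lower for 7 of 10 and higher for 1 (7140 to 11670 against 18540 to 31910), and those of amacrine and bipolar cells for 7 of 7 (656.5 to 4796 against 11560 to 14130). Cone markers were lower for 3 of 8, and for 8 of 8 at an unadjusted p under 0.05 (3684 to 24190 against 26340 to 32260). Lymphocyte markers were higher for 2 of 4 (477.7 to 706.1 against 399.8 to 486.9), endothelial and pericyte markers for 1 of 5 (3228 to 4705 against 3217 to 4695), and of the 2 tested oligodendrocyte and myelin markers MAL was higher (3.3, adjusted p = 0.00019) and MAG did not pass (436.3 to 1500 against 168.1 to 235.1). No lens marker of 6 passed by limma, and 0 did at an unadjusted p under 0.05 (756.7 to 6120 against 687 to 2612). Their part in the differences of GPX3, GPX8, PRDX4, SOD2, GSS, MGST1, MGST2 and OXR1 was not tested. No RPE marker of 12 and no rod marker of 12 passed the limma test, while 3 RPE markers were higher and 1 rod marker lower at an unadjusted p under 0.05, and 1 rod marker did not overlap between groups. The summed RPE signal was 5012 to 49370 in glaucoma and 2594 to 33980 in healthy retina, ranges that overlap through healthy replicate 4 alone. Without the 2 retinas with the most RPE signal, where the sums no longer overlap, 6 members were higher (18.2%, beside 7.29% of all genes) and 2 lower (6.06%, beside 7.2%), with SOD2 lost (1.03, adjusted p = 0.071) and PRDX3 gained. Leaving out these 2 retinas therefore did not remove the RPE difference between the groups, and its part in the members was not tested.

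A measure of RNA quality was compared as well. Control probe sets for actin and GAPDH read the 3' and the 5' end of the same transcript, and the log2 ratio of the ends was 0.94 ± 0.14 (SD, n = 5) in glaucoma and 1.19 ± 0.22 (SD, n = 5) in healthy retina (two-sided exact permutation p = 0.056). With this ratio as a covariate 3 members were higher, GPX3, PRDX4 and GSS (9.09%, beside 2.47% of all genes), and OXR1 was lower (3.03%, beside 2.52%), so calls fell over all genes as well as among the members. An unplanned alternative averaged the ratio over both sets of actin and GAPDH controls. Its counts were 7 and 1, beside 608 and 664 of all 7900 genes. That ratio ran from 1.53 to 2.06 in glaucoma and from 1.37 to 2.17 in healthy retina. The first ratio ran from 0.78 to 1.14 in glaucoma and from 0.94 to 1.52 in healthy retina, so the groups overlapped in both ratios. The 2 ratios gave different counts, and which of them better reflects RNA quality was not tested. The part of RNA quality in the results was not tested further.

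Other genes of the same pathways were read from lists around the members. Among genes that supply NADPH, 0 of 12 were higher by the limma test, beside 8.04% of all genes. At an unadjusted p under 0.05, 3 of the 12 were higher, beside 1198 of 7900 genes. In this list 1 was lower (8.33%, beside 8.65% of all genes), TKT, a transketolase of the pentose phosphate pathway (-0.79, SE 0.18, adjusted p = 0.012). Of 24 other genes of glutathione metabolism and transport, 1 was higher (4.17%, beside 8.04% of all genes). It was GGACT, which breaks down gamma-glutamyl amines (0.53, SE 0.11, adjusted p = 0.0099). In that list 5 were lower (20.8%, beside 8.65% of all genes), led by GSTA4, a transferase for the lipid peroxidation product 4-hydroxynonenal (-0.73, SE 0.12, adjusted p = 0.0023); the others were GSTCD, GGT7, HAGH and LANCL1. The median difference of the list was -0.02.

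Of 19 other thioredoxin-fold and methionine repair genes, 1 was higher (5.26%, beside 8.04% of all genes) and 2 were lower (10.5%, beside 8.65%), shares near those of all genes. The higher gene was CCS, the copper chaperone of SOD1 (0.39, SE 0.11, adjusted p = 0.036), and the lower gene with the smaller p was TMX2 (-0.71, SE 0.19, adjusted p = 0.025). Of 15 other NRF2 targets and regulators, 2 were higher (13.3%) and 2 were lower (13.3%), beside the same 8.04% and 8.65%. ALDH2, a mitochondrial aldehyde dehydrogenase, was higher (0.98, SE 0.16, adjusted p = 0.0019), as was the ferritin light chain FTL, and ALDH3A1, another aldehyde dehydrogenase, was lower (-1.74, SE 0.31, adjusted p = 0.0036), as was HMOX2. Among 12 selenoproteins and metallothioneins, 1 was higher (8.33%, beside 8.04% of all genes) and none was lower (beside 8.65%). The higher gene was SELENOM, a selenoprotein of the endoplasmic reticulum (0.97, SE 0.25, adjusted p = 0.021).

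Enzymes that produce oxidants had 10 tested genes, of which 2 were higher (20%, beside 8.04% of all genes) and 1 was lower (10%, beside 8.65%). CYBB, the catalytic subunit of the phagocyte NADPH oxidase, was higher by 1.81 (SE 0.35, adjusted p = 0.0056), from a mean of 6.43 ± 0.36 (SD, n = 5) in healthy retina to 8.24 ± 0.82 (SD, n = 5) in glaucoma. HVCN1, a proton channel that works with this oxidase, was the other. AIFM1, a flavoprotein of mitochondria, was lower (-0.48, SE 0.13, adjusted p = 0.032). CYBB is made mainly by phagocytes, whose markers were higher in the same retinas, and the part of those cells in its difference was not tested.

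The calls in these lists depended on the covariate and on the retinas included. With the 3' to 5' ratio as a covariate, GSTA4, GSTCD and ALDH3A1 were lower and ALDH2 was higher, and no other gene of the 6 lists passed. Without the 2 retinas with the most RPE signal, CCS, TMX2, TXNL1, HMOX2, LANCL1, HVCN1 and AIFM1 no longer passed, while SLC1A1, PTGES, SESN1, FTH1 and MT2A became higher. With age as a covariate, GGACT, HAGH, LANCL1, TMX2, TXNL1, HVCN1 and AIFM1 no longer passed, and SLC1A1, GLRX5 and AKR7A2 became higher. GSTA4, GSTCD, ALDH2 and ALDH3A1 passed in the reported analysis and in all 3 of these alternatives.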

How the data were processed

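The authors hybridized amplified RNA of each retina to an Affymetrix canine genome array and normalized the raw data with RMA; what they deposited is the RMA intensity of each probe set, not log-transformed, and log2 was taken here. The RMA software version is not given in the sources used here, and array number limits the precision. Probe sets were named from the platform annotation (29254 with 1 symbol, 439 with several, 13231 with none), and 111 array controls were left out. Entrez identifiers are those of that annotation; the ones of PRDX2 and PRDX4 had no match in the RefSeq gene table for assembly UU_Cfam_GSD_1.0, so no positions are given.

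Groups came from the sample titles. Differences were fitted with limma 3.58.1 in R 4.3.3 (lmFit and eBayes, no covariate) on all tested probe sets, checked on simulated data. Figures were drawn with matplotlib. Where several probe sets of a gene were tested, the one brightest on average over all retinas stood for it. Members and gene lists were chosen with earlier results of these data known. All tested members are named, with values by dog for the largest called difference in each role and for members whose probe sets disagreed; values by dog of GCLM, GSR, MGST2, NFE2L2, NQO1, PRDX3 and other members were added after they were seen; from each pathway list the gene with the smallest adjusted p in each direction was named, and other genes were added after their values were seen. Alternatives covered filters, normalization, variance models, the study's Wilcoxon test, its 2-fold minimum, the choice of probe set, age, breed, RNA quality, a replicate block and leaving out each dog. Replicate numbers do not pair dogs.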

Additional observations from a re-analysis of the deposited data

Results flagged for a closer look

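In 5 of 66 sets of values (33 members in 2 groups of 5), 1 retina lay far from the others, with a gap to its neighbour of more than 0.71 of the group's range; chance gives this in about 5% of sets. TXNRD1 read 10.27 in glaucoma replicate 1 and at most 9.64 in the other glaucoma dogs (ratio 0.76), and MSRB2 read 10.12 there and at most 9.18 elsewhere in the group (ratio 0.737). GSTK1 read 9.15 in glaucoma replicate 2 and at least 9.63 in the others (ratio 0.717). TXN2 read 9.53 in glaucoma replicate 5 and at most 9.42 in the others (ratio 0.747), a group with an SD of 0.06. GSR read 7.02 in healthy replicate 1 and at least 7.50 in the others (ratio 0.742). Glaucoma replicate 1 is the retina with high RPE and low rod markers, whose part in the values of TXNRD1 and MSRB2 was not tested.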

How the results depend on the processing

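GPX3 stayed higher and OXR1 lower in all 27 alternatives. SOD2 lost its call in 15 of them, GPX8 in 3, MGST2 in 3 of the 26 that tested it, MGST1 in 2, and PRDX4 and GSS in 1 each, the 2-fold minimum. Against 7 higher and 1 lower member in the analysis reported above, the exact Wilcoxon test (p under 0.01, which only groups without overlap reach) gave 4 higher and a 2-fold minimum gave 2. The 3' to 5' ratio as a covariate gave 3. The higher count was 8 with quantile normalization, trend and robust variance, array weights, the mean of probe sets and the most variable probe set. It was also 8 with age as a covariate. It was 6 without a filter, with 7 in at least 5 retinas and without the 2 retinas with the most RPE signal. Calls were gained by GPX1 in 9 of the 27, GLRX in 6, PRDX3 in 5, GSR in 4, GSTK1 in 3, and PRDX1 and NQO1 in 1 each. The lower count was 2 with quantile normalization, median centring, trend and robust variance, the mean of probe sets, the most variable probe set, without the Shiba Inus, without the Basset Hounds and without the 2 retinas with the most RPE signal, and 4 with array weights. Leaving out each dog in turn gave 6 to 9 higher and 1 to 2 lower members. Over all tested genes it gave 405 to 725 higher and 430 to 829 lower. Array weights gave 942 higher and 1087 lower of 7900 genes, against 635 and 683 in the reported analysis. The Wilcoxon test gave 576 and 619, the 2-fold minimum 258 and 214, and the 3' to 5' ratio 195 and 199. Calls over all genes moved as well, so changes in the member counts cannot be read as particular to the members. By probe set, 14 higher became 8 with the Wilcoxon test, 4 with the 2-fold minimum and 5 with the 3' to 5' ratio, and 4 lower became 9 with array weights and 2 with age as a covariate; leaving out each dog gave 11 to 17 and 3 to 5. Apart from the construction of the Wilcoxon test and of the 2-fold minimum, the cause was not tested.

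The replicate block left 7 higher and 1 lower members, and 13 and 3 probe sets. Over all 7900 genes it gave 446 higher and 424 lower. Same-numbered dogs deviated from their group means with correlations of -0.24 to 0.07, and no dog correlated best with its own number.

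Sign changes occurred for 3 members that did not pass the test in any analysis. TXN (-0.03) became 0.0083 with quantile normalization, 0.18 with age as a covariate, 0.0239 without the Shiba Inus and 0.0208 without the Basset Hounds, and lay between -0.1048 and 0.0752 with 1 dog left out. TXNRD2 (0.04) became -0.0728 with array weights, -0.10 without the Shiba Inus and -0.0446 without the 2 retinas with the most RPE signal, and lay between -0.0465 and 0.1569 with 1 dog left out, the lowest without glaucoma replicate 1. TXNIP (0.32) became -0.15 with its most variable probe set and -0.28 with the 3' to 5' ratio.

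With 5 dogs in each group the number of arrays limits the precision, and breed, age and treatment cannot be told apart from disease.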
